A study of Homo sapiens with 9 samples.

Results

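The subject is the nuclear-encoded subunit mRNAs of the mitochondrial respiratory chain and ATP synthase in HCCLM3 cells, a highly metastatic line derived from human liver cancer. Members were the genes whose symbols place them in complexes I to V. For complex I the symbols were NDUFA, NDUFB, NDUFC, NDUFS or NDUFV followed by a digit, with NDUFA4 and NDUFA4L2 left out by the rule. The others were SDHA to SDHD for complex II, UQCR for complex III, COX4 to COX8 for complex IV and ATP5 for complex V. Choice by symbol does not take every nuclear subunit, and NDUFAB1 of complex I and CYC1 of complex III were not members. The rule took 85 of the 17492 genes in the deposited table, and no measured value entered it. 2 of the 85 are readthrough genes that join a subunit to its neighbour, NDUFC2-KCTD14 and ATP5MF-PTCD1, and they are described apart from the other 83. Those 83 comprise 36 genes of complex I, 4 of complex II, 9 of complex III, 15 of complex IV and 19 of complex V. The 13 subunits encoded by mitochondrial DNA were not analysed here. RNA was sequenced from 3 groups of 3 libraries: cells given the vehicle DMSO (control), quercetin at 50 µM, and quercetin at 100 µM. All groups carry the same wild-type HCCLM3 genotype per the labels, and the labels do not state how long the cells were exposed. The series concerns the action of quercetin, a plant flavonol, on hepatocellular carcinoma. The labels do not say whether replicates were separate cultures, and p-values here speak only of the scatter among these libraries, which may be technical.

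The respiratory chain passes electrons from NADH (complex I) and succinate (complex II) through ubiquinone to complex III, then by cytochrome c to complex IV, where oxygen is reduced to water. Complexes I, III and IV pump protons across the inner mitochondrial membrane, and complex V uses the resulting gradient to make ATP. Each complex has catalytic core subunits and, in mammals, many small supernumerary subunits that surround the core and stabilise it. Complexes I, III, IV and V combine nuclear subunits with subunits encoded by mitochondrial DNA, whereas complex II is wholly nuclear.

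Levels are normalised read counts (CPM, scaled by TMM), and levels compared between genes are in TPM, which allow for transcript length. The libraries held 20061031 to 21599661 counts each. 2 libraries stood apart over all genes. The chi-square per gene between control replicate 1 and each other control was 27.6 and 27.4, whereas those controls gave 3.56 with each other. At 100 µM, replicate 3 gave 83.9 and 86.1 with its partners, which gave 5.04 together. Of the 10 hepatocyte markers APOA1, TTR, AHSG, APOB and SERPINA1 stayed at or below 2.13 TPM in every library, while ALB reached 13.96, TF 20.2, HNF4A 21.2 and FGB 55.7 TPM. Of the 9 tested, 3 rose and 3 fell at 50 µM, and 5 rose and 1 fell at 100 µM. Among all genes tested 5.28% rose and 6.31% fell at 50 µM, and 10.7% and 10.3% at 100 µM. The leukocyte markers PTPRC and CD3E and the fibroblast genes COL1A1, COL1A2 and COL3A1 stayed at or below 1.34 TPM. Summed over the whole lists, the 6 fibroblast markers held 57.7 to 87.2 TPM in control cells, 66.2 to 73.5 at 50 µM and 63.6 to 109.5 at 100 µM, mostly LUM, and the 6 immune markers 184.9 to 257, 164 to 181 and 254 to 377 TPM, mostly CD68. The 4 endothelial markers held 19.9 to 22.2 TPM in control cells, 10.2 to 11.9 at 50 µM and 10.7 to 13.9 at 100 µM, and the 10 hepatocyte markers 33.9 to 35.5, 64.8 to 72.2 and 67.5 to 101.9 TPM. The part of these shifts in the results on the subunits was not tested.

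Of the 83 subunit genes 78 passed the filter on low counts. At the mean over the 9 libraries, the genes that passed spanned 13.9 to 1122 TPM, with medians of 117 TPM in complex I, 154 in complex II, 122 in complex III, 313 in complex IV and 194 in complex V. ATP5F1B, the catalytic beta subunit of ATP synthase, was the most abundant at 1122 TPM, close to COX6A1 of complex IV at 1103 TPM. Their order differed between the groups: COX6A1 held 948 ± 71.8 TPM in control cells, 1216 ± 73.2 at 50 µM and 1145 ± 21.5 at 100 µM (SD, n = 3 each), and ATP5F1B held 1259 ± 158, 1112 ± 13.8 and 994 ± 88.3 TPM. ATP5F1B was the higher in all 3 controls, and COX6A1 in all 6 treated libraries. In complex I NDUFB9 led in control cells with 611 ± 21.9 TPM beside 407 ± 51.3 for NDUFA1. NDUFA1 had the higher mean at 50 µM (558 ± 53.5 against 499 ± 23.03 TPM) and at 100 µM (525 ± 6.5 against 415 ± 9.13 TPM). Elsewhere the leading genes were SDHD in complex II (242 TPM) and UQCRH in complex III (486 TPM). The lowest of the genes that passed was NDUFV3 at 13.9 TPM.

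**Figure D1:**
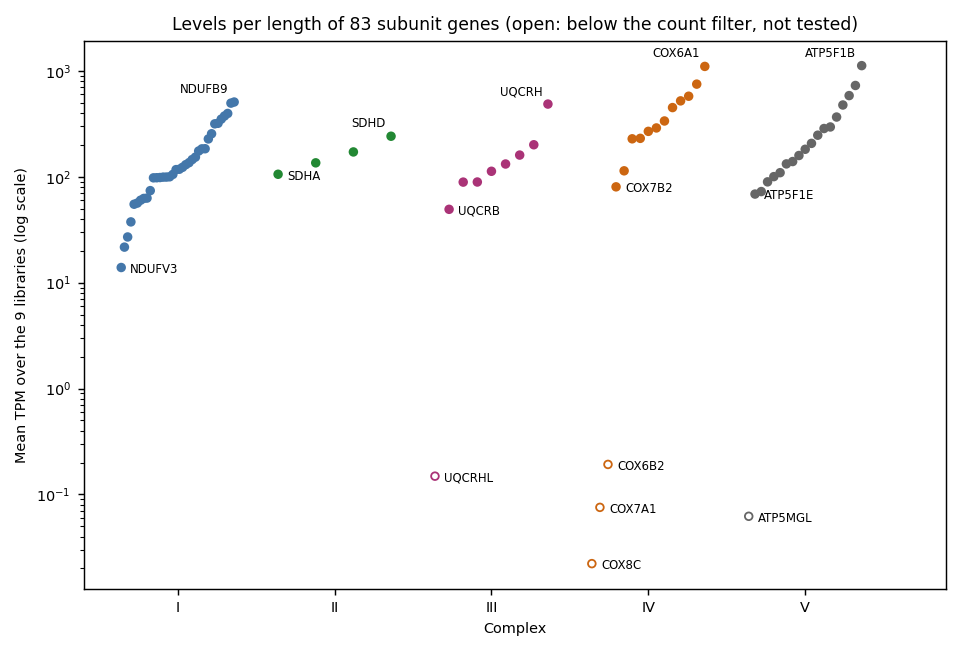
Mean level of each of the 83 subunit genes over the 9 libraries (TPM, log scale), by complex; each point is a gene, and open points are the 5 genes below the filter on low counts. ATP5F1B and COX6A1 lie highest at 1122 and 1103 TPM, and the 5 open points lie at or below 0.192 TPM.

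Where a subunit has paralogs, HCCLM3 cells mostly carried the widely expressed form. COX7A2 held 289 TPM, whereas the striated-muscle form COX7A1 held 0.0756. COX6B1 held 521 TPM and COX6B2, known from testis, 0.192. COX8A held 577 TPM and COX8C 0.0222. COX7B2 was the exception, with 80.4 TPM beside 114 for COX7B. The 3 genes for the c subunit of the ATP synthase rotor, which encode the same mature protein, held 477 TPM (ATP5MC2), 109 (ATP5MC3) and 72.6 (ATP5MC1). UQCRHL, a copy of UQCRH, and ATP5MGL, a copy of ATP5MG, held 0.149 and 0.0622 TPM. Reads of near-identical copies can be divided between them by the counting, so the small values of the copies are uncertain.

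At 50 µM the subunits lay higher than in control cells on the whole, with complex IV highest and complex II lowest. The part of coding length in this order of the complexes, described further below, was not tested. By edgeR's quasi-likelihood test, with p-values adjusted by Benjamini-Hochberg over all 12832 genes tested, 22 of the 78 subunits rose and 1, SDHA, fell. Of all genes tested 5.28% rose and 6.31% fell, and shares by coding length are given further below. The median log2 fold change of the subunits was 0.26, against 0.0033 for all genes tested, and 68 of 78 subunits were above 0, as were 50.4% of all genes. In 45 subunits all 3 libraries at 50 µM lay above all 3 controls, a separation shown upward by 24.4% of all genes, and in 4 all lay below, shown by 24.6%. These are shares of total messenger RNA in a bulk culture, so a change in the mix of cells and a change of RNA per cell cannot be told apart. By complex, 11 of 36 complex I subunits rose (median log2 fold change 0.27), 0 of 4 complex II subunits (0.073, and 1 fell), 2 of 8 in complex III (0.34), 5 of 12 in complex IV (0.45) and 4 of 18 in complex V (0.24). For complex II, 1 subunit was higher at an unadjusted p under 0.05. DESeq2 called 1 higher and limma 0, where they called 9.41% and 5.41% of all genes higher.

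The calls at 50 µM depended on the libraries kept. None of the 23 was kept without control replicate 2, control replicate 3, 50 µM replicate 1 or 50 µM replicate 3, and 3 were kept without 50 µM replicate 2. In these fits 0.362% to 0.732% of all genes rose. Without 100 µM replicate 3 there were 46 rises, where 18.4% of all genes rose, and without control replicate 1 there were 32, where 10.8% did, each with all 23 calls kept. Without both libraries that stood apart 53 subunits rose and 4 fell, where 28.5% and 28.9% of all genes did. The median log2 fold change stayed between 0.23 and 0.32 whichever single library was left out.

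At 100 µM against the same 3 controls, 11 of 78 subunits rose and 2 fell, both in complex I. Of all genes tested 10.7% rose and 10.3% fell, and shares by coding length are given further below. The median log2 fold change of the subunits was 0.13, against 0.00087 for all genes, with 52 of 78 above 0 and 50.1% of all genes. All 3 libraries lay above all controls for 20 subunits, where 17.3% of all genes showed this, and below them for 8, where 18.6% did. By complex 5 of 36 subunits of complex I rose and 2 fell (median 0.067), 1 of 8 in complex III rose (0.14), 3 of 12 in complex IV (0.15) and 2 of 18 in complex V (0.14). In complex II 0 of 4 passed the edgeR test in either direction (median -0.0038), 0 were past an unadjusted p of 0.05, and DESeq2 and limma called 0. Without control replicate 3 the count of rises was 0, without control replicate 2 it was 1 and without 100 µM replicate 2 it was 2, where 4.6%, 4.79% and 8.43% of all genes rose. With these 2 groups fitted alone it was also 2, where 4.63% of all genes rose. It was 6 without 50 µM replicate 1 and 6 without 50 µM replicate 2, where 7.93% and 7.69% did. Without control replicate 1 it was 17, where 13.01% did. Of the falls, 1 was left without control replicate 2, control replicate 3 or 100 µM replicate 1, against 5 without control replicate 1 and 4 without 100 µM replicate 3. Without both libraries that stood apart 28 rose and 12 fell, where 24.2% and 24.4% of all genes did. The median log2 fold change was 0.054 without 100 µM replicate 3 and 0.093 to 0.18 without any other single library.

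**Figure D2:**
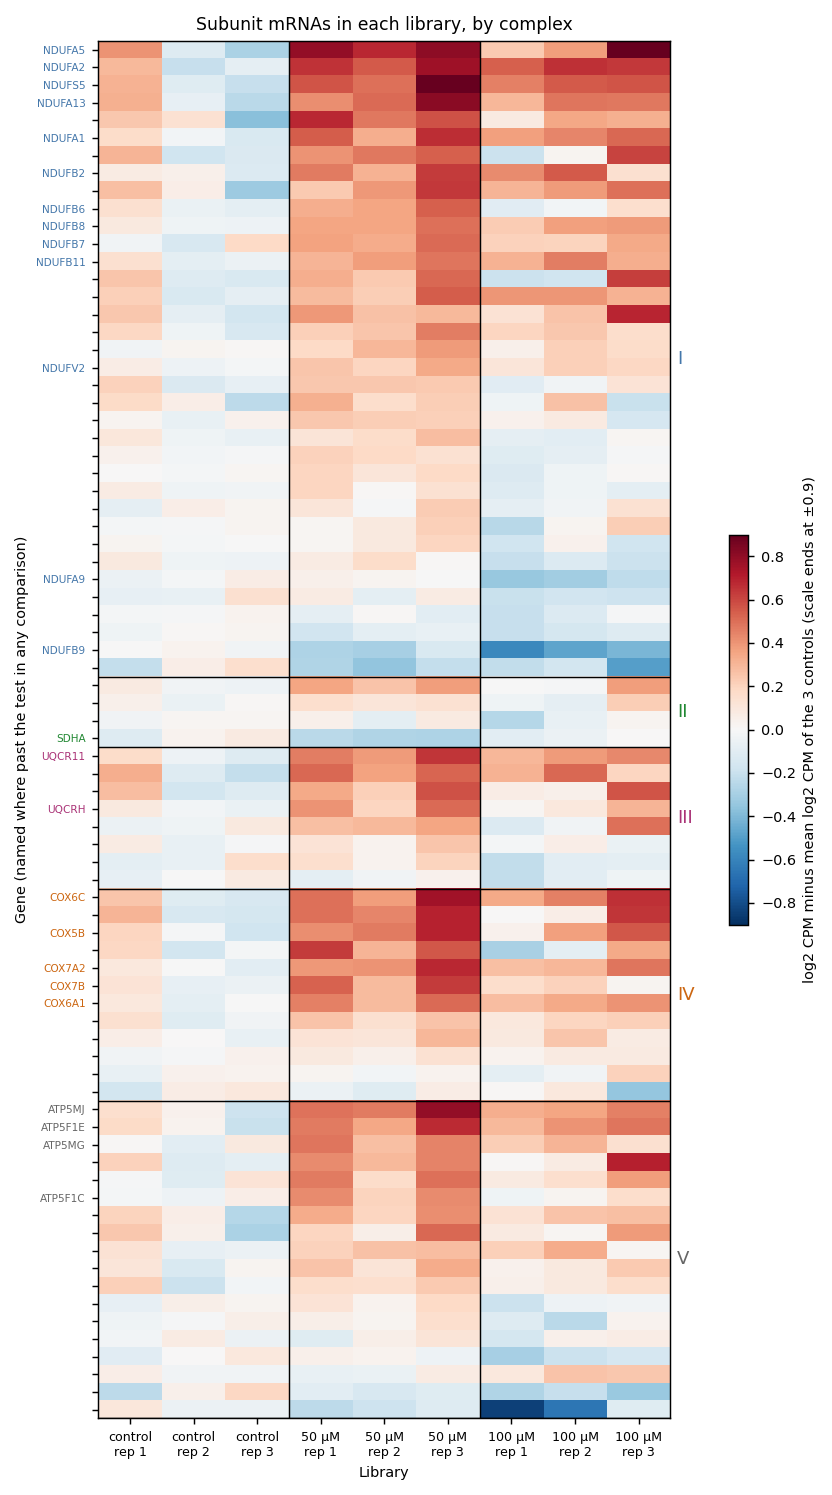
Log2 CPM of each of the 78 tested subunit genes (rows, by complex) in each of the 9 libraries (columns), as the difference from the mean log2 CPM of the 3 controls; red is higher and blue lower, and the colour scale ends at ±0.9. Genes past edgeR's test in any of the 3 comparisons are named. The libraries at 50 µM are red for most genes, 50 µM replicate 3 being the highest of its group for 60 genes, while control replicate 1 is the highest control for 50 genes.

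In CPM the subunits of each group tended to move together from library to library. The share of all genes with the same ranks was not computed. Of 78 subunits, 50 were highest among the controls in replicate 1, 60 were highest at 50 µM in replicate 3 with 51 lowest in replicate 2, and 52 were highest at 100 µM in replicate 3 with 56 lowest in replicate 1. The median deviation of the subunits from the control mean was 0.086, -0.038 and -0.040 (log2) in the 3 controls, 0.25, 0.19 and 0.34 in the 3 libraries at 50 µM, and 0.013, 0.076 and 0.18 in those at 100 µM. So replicates 1 and 2 at 100 µM lay below control replicate 1, while every library at 50 µM lay above every control. The same median over all genes tested lay between -0.0090 and 0.010 in every library. TMM scaling over these genes tends to hold it near 0, so it is no independent contrast. That applies also to the median log2 fold change of all genes and their share above 0. The rank of a library also depended on the scale. For complex I, 100 µM replicate 3 had the highest summed CPM of its group (2346, against 2118 and 2265). In summed TPM it had the lowest (5531, against 5694 and 5934). The summed TPM of complex IV was 4502 ± 318 in control cells, 5360.5 ± 277 at 50 µM and 4991 ± 88.9 at 100 µM (SD, n = 3 each). In the same order the sums were 5562 ± 417, 6365 ± 283 and 5719.7 ± 203 TPM for complex I, 657 ± 10.7, 676 ± 11.3 and 631 ± 32.9 for complex II, 1229 ± 68.2, 1457 ± 80.5 and 1275 ± 46.5 for complex III and 5248 ± 149, 5716 ± 128 and 5139 ± 69.7 for complex V. The mean sum of TPM was highest at 50 µM in every complex, and at 100 µM it lay below that of control cells in complexes II and V. For complex II this depended on the scale. Its summed CPM was 471 ± 4.91 in control cells and 479 ± 47.5 at 100 µM (SD, n = 3 each).

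Promoters of the subunits were searched for letters recognised by factors that regulate respiratory genes, since many of the members are known targets of NRF1 (nuclear respiratory factor), GABPA, the estrogen-related receptors and YY1. RefSeq windows of 250 bases before to 50 after each gene's start were found for 68 of the 83 subunits and 10525 of the genes tested (build GRCh38.p14), and both strands were searched. The NRF1 core, spelled GCGC, any base, then TGCGC, occurred in 17 of 68 subunit windows (25.0%) and in 11.7% of the windows of genes tested, and its strict form, with A as the free base, in 4 windows (5.88%) against 2.34%. The YY1 letters AAGATGGCG occurred in 8 windows (11.8%) against 3.90%, the GABPA letters CCGGAAGTG in 4 (5.88%) against 5.09%, and the receptor letters TCAAGGTCA in 1 (1.47%) against 0.171%. ACGTG, the core of the hypoxia response element, occurred in 17 (25.0%) against 26.6%. Of the 20 subunits that rose at 50 µM and had a window, 3 held the NRF1 core and 0 the YY1 letters. The NRF1 strict form is part of the count of the core. Shown here are the 250 bases before the start, 5′ to 3′ on the gene's strand, of the 5 genes past the test that held the NRF1 core there, with the core, on either strand, in capitals. NDUFA9 (chr12:4648864-4649113, plus strand) and SDHA (chr5:218070-218319, plus strand) fell, and SDHA holds 4 copies. UQCR11 (chr19:1605463-1605712, minus strand, 2 copies), ATP5F1C (chr10:7787927-7788176, plus strand) and ATP5MJ (chr14:103921530-103921779, minus strand) rose. The core thus stands before genes of both directions.
NDUFA9: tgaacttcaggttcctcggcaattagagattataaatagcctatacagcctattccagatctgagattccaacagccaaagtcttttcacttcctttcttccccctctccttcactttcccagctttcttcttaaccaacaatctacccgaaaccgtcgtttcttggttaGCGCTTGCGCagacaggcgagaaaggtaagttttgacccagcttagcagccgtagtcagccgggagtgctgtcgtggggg
SDHA: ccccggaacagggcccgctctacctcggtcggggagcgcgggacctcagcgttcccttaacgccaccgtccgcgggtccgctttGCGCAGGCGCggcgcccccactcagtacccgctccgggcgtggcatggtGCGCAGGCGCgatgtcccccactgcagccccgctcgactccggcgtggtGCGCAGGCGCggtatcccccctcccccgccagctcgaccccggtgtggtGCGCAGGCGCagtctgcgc
UQCR11: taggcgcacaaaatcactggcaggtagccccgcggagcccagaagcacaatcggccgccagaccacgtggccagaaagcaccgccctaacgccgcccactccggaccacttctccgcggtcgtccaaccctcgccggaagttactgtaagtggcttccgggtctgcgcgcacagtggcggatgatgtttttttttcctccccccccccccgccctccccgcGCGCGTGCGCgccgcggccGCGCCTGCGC
ATP5F1C: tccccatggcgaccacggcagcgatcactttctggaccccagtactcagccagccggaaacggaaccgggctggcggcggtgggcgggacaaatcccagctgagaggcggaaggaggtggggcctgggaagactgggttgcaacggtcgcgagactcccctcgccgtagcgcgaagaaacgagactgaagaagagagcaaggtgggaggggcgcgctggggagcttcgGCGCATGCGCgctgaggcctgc
ATP5MJ: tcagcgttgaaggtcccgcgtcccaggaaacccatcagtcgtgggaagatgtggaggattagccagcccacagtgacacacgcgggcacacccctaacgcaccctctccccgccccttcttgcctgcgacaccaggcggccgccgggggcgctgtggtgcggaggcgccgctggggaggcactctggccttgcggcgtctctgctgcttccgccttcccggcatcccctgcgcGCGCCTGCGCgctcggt

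In complex I the rises at 50 µM lay mainly among the small supernumerary subunits. The part of coding length in this contrast, described further below, was not tested. 10 of 29 of these rose, with a median log2 fold change of 0.35, and 1 of the 7 core subunits, NDUFV2, with a median of 0.16 for the core; this division was chosen after the values had been seen. NDUFA5, a subunit of the matrix arm, held 76.6, 53.3 and 47.4 CPM in control cells, 100.3, 92.7 and 101 at 50 µM and 68.02, 75.2 and 109 at 100 µM. All libraries at 50 µM lay above all controls, while 2 of those at 100 µM lay below control replicate 1. Its log2 fold change was 0.73 ± 0.20 (SE) at 50 µM (edgeR adjusted p = 0.048) and 0.51 ± 0.20 at 100 µM, which did not pass (edgeR adjusted p = 0.105).

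NDUFS5, a subunit on the intermembrane-space face (gene 4725, GRCh38 chromosome 1, 39026293 to 39034615), held 63.3, 47.2 and 44.04 CPM in control cells, 75.3, 71.6 and 94.6 at 50 µM and 69.6, 74.5 and 75.2 at 100 µM. Every treated library lay above every control, and control replicate 1 was the nearest to them. Its log2 fold changes were 0.64 ± 0.15 at 50 µM and 0.50 ± 0.15 at 100 µM (edgeR adjusted p = 0.026 and 0.0392). NDUFA2, a subunit of the matrix arm near the NADH-oxidising tip (gene 4695, GRCh38 chromosome 5, 140638740 to 140647630), held 25.2, 17.9 and 19.5 CPM in control cells, 32.4, 30.3 and 35.1 at 50 µM and 29.96, 32.5 and 32.2 at 100 µM. The groups did not overlap with the control at either dose. Its log2 fold changes were 0.64 ± 0.13 and 0.59 ± 0.13 (edgeR adjusted p = 0.0177 and 0.0117), and the rise at 100 µM was kept in 8 of 9 fits that left out a library, the most of any rise at that dose. NDUFA1, a membrane-arm subunit (gene 4694, GRCh38 chromosome X, 119871771 to 119876665), held 78.9, 69.2 and 64.1 CPM in control cells, 103, 88.4 and 112 at 50 µM and 91.1, 95.4 and 101 at 100 µM, again without overlap with the control. It rose by 0.51 ± 0.11 and 0.44 ± 0.11 in log2 units (edgeR adjusted p = 0.0198 and 0.0208), and the call at 100 µM was kept in 7 of 9 such fits.

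The membrane-arm subunits NDUFB8 and NDUFB11 also rose at both doses, by 0.40 and 0.39 on the log2 scale at 50 µM and by 0.33 and 0.36 at 100 µM. NDUFA13, NDUFB2, NDUFB6, NDUFB7 and NDUFV2 rose at 50 µM and did not pass the test at 100 µM, with log2 fold changes of 0.26 to 0.57 at 50 µM and 0.0076 to 0.40 at 100 µM. NDUFB6 had the largest gap between the doses among them, with 73.5, 63.7 and 62.5 CPM in control cells, 83.3, 84.8 and 96.2 at 50 µM and 61.8, 65.4 and 73.7 at 100 µM. All 3 of its libraries at 50 µM exceeded all 6 others, yet 100 against 50 µM did not pass (log2 fold change -0.40 ± 0.10, edgeR adjusted p = 0.0569).

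The catalytic core of complex I had smaller fold changes, in a division also chosen after the values had been seen. NDUFV1, which binds NADH and the flavin, held 83.3 ± 1.38 CPM in control cells, 89.8 ± 6.25 at 50 µM and 84.02 ± 13.6 at 100 µM (SD, n = 3 each), with overlapping libraries throughout. NDUFS1, the largest iron-sulfur subunit, held 121, 116 and 117 CPM in control cells, 136, 133 and 129 at 50 µM and 109, 111 and 117 at 100 µM. Its 3 libraries at 50 µM lay above all other libraries by a small margin, and it did not pass (log2 fold change 0.17 ± 0.066; edgeR adjusted p = 0.108).

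2 supernumerary subunits of complex I fell at 100 µM. NDUFB9, a membrane-arm subunit of the LYR-motif family and the most abundant of the complex in control cells, held 183, 187 and 179 CPM in control cells, 151, 149 and 167 at 50 µM and 122, 132 and 138 at 100 µM. The 3 groups were separate and stepped down with dose. At 100 µM its log2 fold change against control was -0.49 ± 0.077 (edgeR adjusted p = 0.00318), kept in 9 of 9 fits that left out a library; at 50 µM it was -0.23 ± 0.077 and did not pass (edgeR adjusted p = 0.0723). NDUFA9, which sits where the arms of the complex meet and whose promoter window is printed above (gene 4704, GRCh38 chromosome 12, 4649095 to 4694317), held 110.3, 113 and 119.95 CPM in control cells, 118, 116 and 114 at 50 µM and 90.2, 92.2 and 97.6 at 100 µM. Its libraries at 100 µM lay below all 6 others, and those at 50 µM lay within the range of control cells. The log2 fold change was -0.29 ± 0.069 against control (edgeR adjusted p = 0.017, kept in 6 of 9 fits) and -0.31 ± 0.069 against 50 µM (edgeR adjusted p = 0.0391, kept in 2 of 9). NDUFA8 lay at -0.28 at 50 µM and -0.30 at 100 µM without passing, with overlapping libraries.

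**Figure D3:**
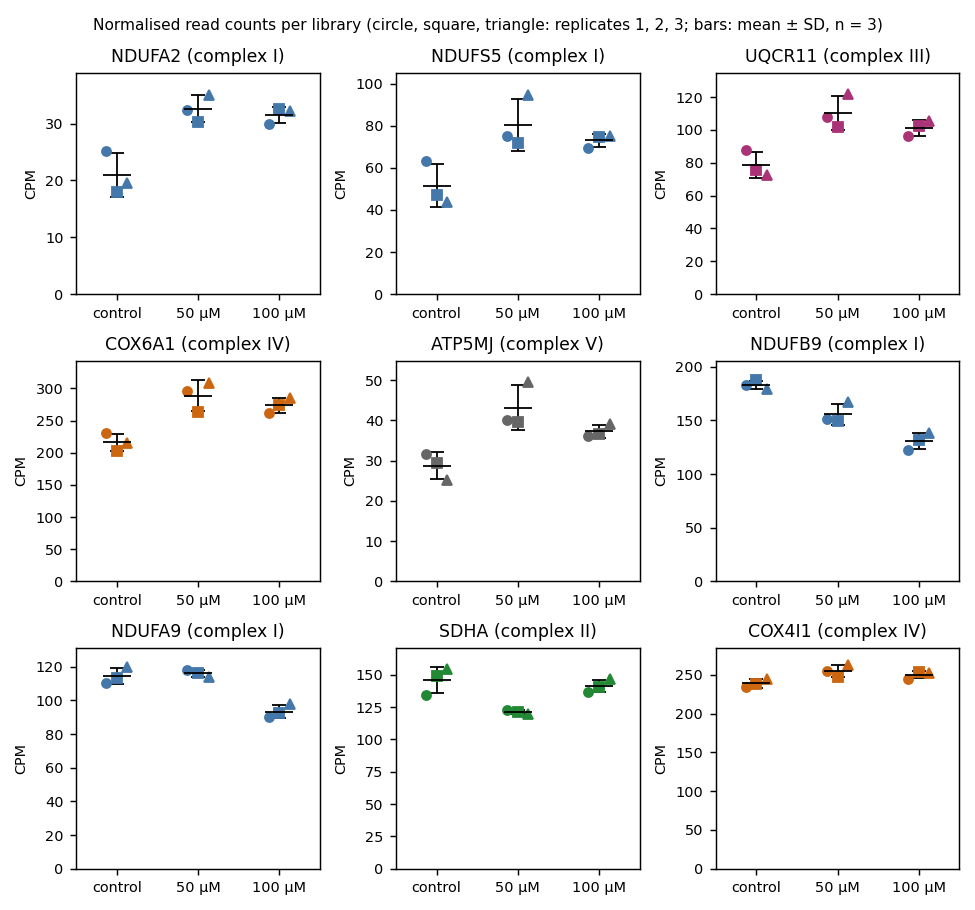
CPM of 9 subunits in each library, against dose (control, 50 µM, 100 µM); circles, squares and triangles are replicates 1, 2 and 3, and bars give the mean ± SD (n = 3). NDUFA2, NDUFS5, UQCR11, COX6A1 and ATP5MJ lie above the controls at both doses, NDUFB9 steps down to 122 to 138 CPM at 100 µM, NDUFA9 is low at 100 µM and SDHA at 50 µM, and COX4I1 stays between 234 and 262 CPM.

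Complex II was the one complex in which no subunit rose in edgeR's test at either dose. SDHA, the flavoprotein that oxidises succinate (gene 6389, GRCh38 chromosome 5, 218309 to 264816), held 135, 149 and 154 CPM in control cells, 123, 121 and 120.00 at 50 µM and 137, 141 and 147 at 100 µM. Its libraries at 50 µM were nearly equal and lay below all others, and those at 100 µM lay within the range of control cells. SDHA fell at 50 µM with a log2 fold change of -0.27 ± 0.074 (edgeR adjusted p = 0.0472, kept in 2 of 9 fits that left out a library), against -0.048 ± 0.074 at 100 µM (edgeR adjusted p = 0.671). SDHB, the iron-sulfur subunit, held 64.2 ± 1.33 CPM in control cells, 64.8 ± 3.91 at 50 µM and 60.05 ± 5.86 at 100 µM (SD, n = 3 each). Of the membrane anchors, SDHC held 131, 122 and 128 CPM in control cells, 141, 137 and 139.7 at 50 µM and 124, 120.4 and 148 at 100 µM. SDHD held 141, 131 and 129 CPM in control cells, 171, 159.7 and 173 at 50 µM and 133, 132 and 174 at 100 µM. Both anchors were above all controls in every library at 50 µM, and at 100 µM only in replicate 3, one of the libraries that stood apart. Neither passed edgeR's test (SDHD at 50 µM: log2 fold change 0.33 ± 0.11, edgeR adjusted p = 0.0757). In the authors' deposited table SDHD was higher at 50 µM (log2 fold change 0.33, DESeq2 q = 0.000387), so its call differed between the tools.

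In complex III the rises in edgeR's test were in small subunits. UQCRC1, UQCRC2 and UQCRFS1, the core subunits among the members, did not pass it. Here too the part of coding length was not tested. UQCR11, the shortest of the complex by coding length (gene 10975, GRCh38 chromosome 19, 1597169 to 1605462), held 87.5, 75.6 and 72.3 CPM in control cells, 108, 102 and 122 at 50 µM and 96.2, 102 and 106 at 100 µM. Every treated library exceeded every control. It rose by 0.49 ± 0.10 at 50 µM and 0.37 ± 0.10 at 100 µM in log2 units (edgeR adjusted p = 0.018 and 0.0278). UQCRH, the hinge protein beside cytochrome c1, held 109, 100.5 and 97.99 CPM in control cells, 135, 117 and 146 at 50 µM and 104, 109 and 127 at 100 µM. Its rise at 50 µM was 0.37 ± 0.11 (edgeR adjusted p = 0.0499, just under the threshold and kept in 2 of 9 fits), and at 100 µM its libraries overlapped the controls. UQCRQ and UQCRB, small subunits of the membrane part, lay at 0.45 and 0.37 at 50 µM without passing.

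Among the core proteins, UQCRC1 held 102 ± 5.62 CPM in control cells, 99.8 ± 4.38 at 50 µM and 93.5 ± 6.05 at 100 µM (SD, n = 3 each). UQCRC2 held 157, 158 and 173 CPM in control cells, 196, 199 and 208 at 50 µM and 149, 159 and 229 at 100 µM, where replicate 3 stood far above the other libraries of its dose. UQCRFS1, the Rieske iron-sulfur protein, held 155, 157 and 183 CPM in control cells, 182, 168 and 189 at 50 µM and 141, 154 and 155 at 100 µM, the last group at or just below the lowest control. Log2 fold changes of the 3 at 50 µM were -0.025, 0.30 and 0.13, none of which passed edgeR's test, with SEs of 0.080 to 0.14. In the authors' deposited table UQCRC2 was higher at 50 µM (log2 fold change 0.30, q = 0.00084).

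Complex IV had the highest median shift at 50 µM, and the part of coding length in this was not tested. COX6C held 136, 106 and 104 CPM in control cells, 162, 148 and 194 at 50 µM and 145, 157 and 180.5 at 100 µM, with all treated libraries above all controls. It rose by 0.54 ± 0.14 and 0.48 ± 0.14 in log2 units (edgeR adjusted p = 0.0366 and 0.0385). COX5B, a zinc-binding subunit on the matrix side, held 76.7, 66.6 and 59.3 CPM in control cells, 89.9, 93.02 and 108 at 50 µM and 68.9, 86.9 and 99.1 at 100 µM. It rose at 50 µM by 0.52 ± 0.15 (edgeR adjusted p = 0.0469), and 100 µM replicate 1 lay within the range of control cells. COX7A2, the widely expressed partner of COX7A1 (gene 1347, GRCh38 chromosome 6, 75237675 to 75250298), held 50.6, 47.3 and 44.4 CPM in control cells, 61.96, 62.6 and 75.8 at 50 µM and 57.3, 58.2 and 66.2 at 100 µM, and rose by 0.49 ± 0.10 and 0.35 ± 0.10 (edgeR adjusted p = 0.0202 and 0.0408). COX6A1, the most abundant of the complex (gene 1337, GRCh38 chromosome 12, 120438113 to 120440730), held 230.4, 203 and 215 CPM in control cells, 296, 263 and 308 at 50 µM and 262, 274 and 285 at 100 µM. It too was separate from the control at both doses, with rises of 0.42 ± 0.086 and 0.34 ± 0.086 (edgeR adjusted p = 0.0189 and 0.0225).

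COX7B rose at 50 µM with 163, 137 and 174 CPM, against 123, 107 and 109 in control cells (log2 fold change 0.48 ± 0.10, edgeR adjusted p = 0.0209), and held 126, 129.97 and 115 CPM at 100 µM. Its paralog COX7B2 held 27.2, 21.8 and 25.9 CPM at 50 µM and 20.04, 15.7 and 17.4 in control cells, a log2 fold change of 0.49 ± 0.17 that did not pass (edgeR adjusted p = 0.0799). COX4I1, the large supernumerary subunit that helps assembly begin, stayed nearly level with 234, 238 and 245 CPM in control cells, 254, 247 and 262 at 50 µM and 245, 253 and 253 at 100 µM. Its log2 fold changes were 0.091 ± 0.066 and 0.065 ± 0.066 and did not pass. COX5A and COX7A2L, a factor that joins complex IV to complex III, lay at -0.034 and 0.011 at 50 µM. The 3 paralogs below the filter, COX6B2, COX7A1 and COX8C, had at most 0.384 CPM in any library and were not tested.

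In the catalytic head of complex V 2 of 5 subunits rose at 50 µM. ATP5F1A and ATP5F1B, the alpha and beta subunits that form the catalytic ring, did not pass the test at either dose. ATP5F1B held 852, 1035 and 1139 CPM in control cells, 937, 908 and 929 at 50 µM and 830.3, 869 and 795 at 100 µM, with control replicate 1 below the other controls. ATP5F1A held 277, 299 and 319 CPM in control cells, 308, 305 and 289 at 50 µM and 242, 259.9 and 268 at 100 µM. At 100 µM their log2 fold changes were -0.28 ± 0.10 and -0.22 ± 0.08 (edgeR adjusted p = 0.0865 and 0.0821), neither past the threshold. The gamma subunit ATP5F1C, the turning axle (gene 509, GRCh38 chromosome 10, 7788159 to 7807801), held 165, 162 and 175 CPM in control cells, 225, 193 and 225 at 50 µM and 163, 169.9 and 187 at 100 µM. It rose at 50 µM by 0.36 ± 0.089 (edgeR adjusted p = 0.0334) and overlapped the control range at 100 µM. ATP5F1E, the small epsilon subunit, held 107, 96.8 and 82.6 CPM in control cells, 131, 121 and 151 at 50 µM and 116, 126 and 132 at 100 µM, with rises of 0.50 ± 0.12 and 0.39 ± 0.12 (edgeR adjusted p = 0.027 and 0.0414). The delta subunit ATP5F1D held 68.02, 72.7 and 66.6 CPM in control cells, 63.98, 71.8 and 74.7 at 50 µM and 61.8, 71.2 and 72.4 at 100 µM, with overlapping libraries and log2 fold changes of 0.022 and -0.014 that did not pass.

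Among the membrane subunits, ATP5MJ (gene 9556, GRCh38 chromosome 14, 103912288 to 103921566) held 31.8, 29.4 and 25.2 CPM in control cells, 40.1, 39.7 and 49.6 at 50 µM and 36.03, 36.6 and 39.2 at 100 µM. Its 3 groups did not overlap, the middle dose being highest. It rose by 0.58 ± 0.12 and 0.37 ± 0.12 in log2 units (edgeR adjusted p = 0.018 and 0.0487). ATP5MG, subunit g at the dimer interface, rose at 50 µM with 177, 153 and 172 CPM, against 128, 119 and 135 in control cells (log2 fold change 0.40 ± 0.086, edgeR adjusted p = 0.021). The 3 genes for subunit c differed in sign without passing edgeR's test. ATP5MC2 held 132, 106 and 108 CPM in control cells, 154, 139.99 and 156 at 50 µM and 115, 121 and 186 at 100 µM, where replicate 3 stood apart. ATP5MC1 held 23.3, 20.9 and 20.9, 18.4, 19.03 and 20.01 and 12.1, 13.8 and 20.1 CPM in the same order, the lowest log2 fold change of any subunit at 100 µM at -0.50 ± 0.17 (edgeR adjusted p = 0.0592). ATP5MC3 lay at 0.11 and -0.092. ATP5IF1, which inhibits ATP hydrolysis when the proton gradient fails, held 26.8, 25.2 and 25.2 CPM in control cells, 24.6, 24.7 and 27.1 at 50 µM and 27.5, 30.7 and 30.4 at 100 µM. All its libraries at 100 µM lay above all others, but the log2 fold change against control of 0.20 ± 0.085 did not pass (edgeR adjusted p = 0.125). The 4 stalk subunits ATP5PB, ATP5PD, ATP5PF and ATP5PO lay between 0.076 and 0.38 at 50 µM without passing.

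**Figure D4:**
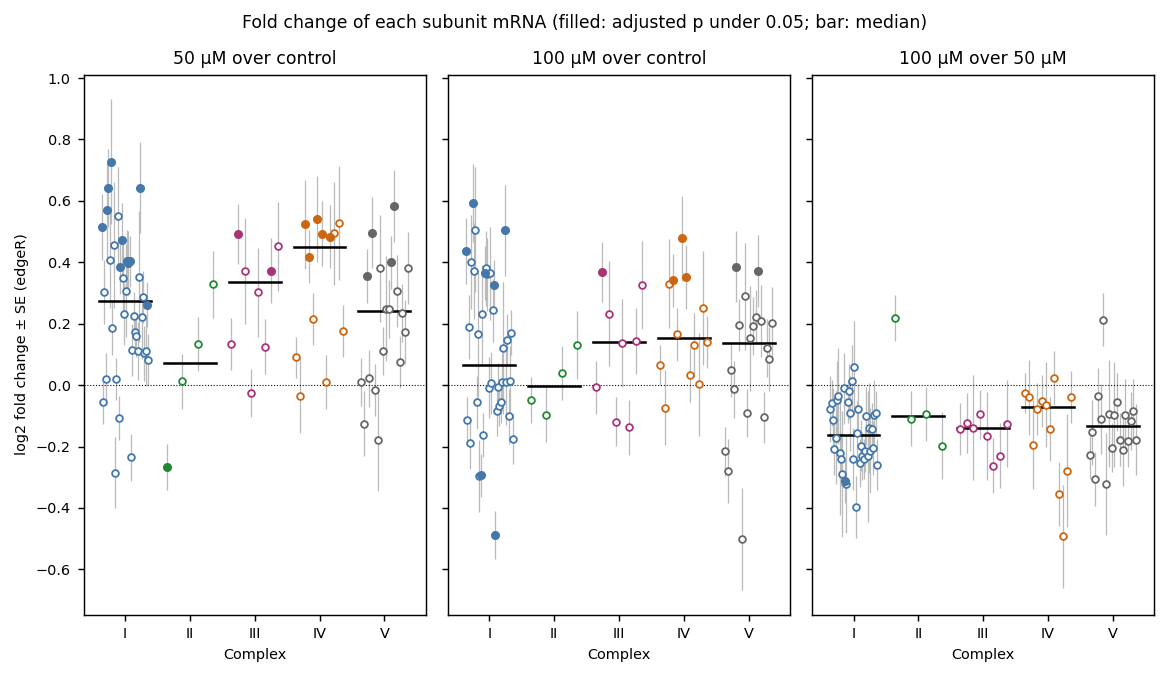
Log2 fold change ± SE (edgeR) of the 78 tested subunits by complex, for 50 µM over control, 100 µM over control and 100 µM over 50 µM; filled points have an adjusted p under 0.05 and bars are medians. The medians at 50 µM run from 0.073 in complex II to 0.45 in complex IV, those at 100 µM lie between -0.0038 and 0.15, and in the direct comparison of the doses nearly all points lie below 0.

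Compared directly, few single subunits passed the test between the doses, and the lowest log2 fold change, -0.49 in complex IV, did not. The subunits lay on the low side at 100 µM. 73 of 78 had a negative log2 fold change for 100 against 50 µM, whereas 51.8% of all genes tested were above 0, and the median was -0.14 against 0.012 for all genes. In edgeR's test 0 subunits were higher and 1, NDUFA9, was lower at 100 µM, where 2.25% and 1.89% of all genes were (4.15% in either direction). At an unadjusted p under 0.05, 2 were higher (SDHA and ATP5IF1) and 18 lower, and DESeq2 called 1 higher and 8 lower, where it called 5.53% and 5.24% of all genes. All 3 libraries at 100 µM lay below all 3 at 50 µM for 19 subunits, a separation shown by 14.4% of all genes, and above them for 2, shown by 13.3%. Without 100 µM replicate 3, 23 subunits were lower at 100 µM, where 13.4% of all genes were. Without control replicate 1, 2 were, where 2.80% of all genes were. The median was -0.081 without 50 µM replicate 3 and -0.094 to -0.19 without any other single library. The single call was lost without each of the other controls, each library at 50 µM and each of the other libraries at 100 µM. Without both libraries that stood apart 2 were higher and 35 lower, where 24.6% and 22.7% of all genes were. After NDUFA9 the smallest p-values among subunits without overlap were those of NDUFB6, NDUFS1, ATP5F1C and COX7B, with log2 fold changes of -0.40, -0.24, -0.30 and -0.35 (edgeR adjusted p = 0.0569, 0.0706, 0.0822 and 0.0843). The comparisons of each dose with the control share their control libraries, so the values of the members at the 2 doses are given side by side and were not correlated.

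The upward shift was larger for genes of short coding length, among the subunits and among other genes. Coding length was known for 99.4% of genes tested and all 78 subunits, of which 20 have at most 300 coding bases and 39 have more, up to 600. At 50 µM the median log2 fold change was 0.43 for subunits of at most 300 bases and 0.31 for the 263 other genes of that class. In the class above 300 and up to 600 bases it was 0.30 for 39 subunits and 0.13 for 1325 other genes. Above 600 and up to 1200 bases it was 0.11 for 11 subunits and 0.056 for 3641 others, and above 1200 bases 0.060 for 8 subunits and -0.057 for 7444 others. At 100 µM the first 2 classes had medians of 0.23 and 0.12 for the subunits, and 0.22 and 0.10 for the other genes. The class above 600 and up to 1200 bases had -0.097 for the subunits and 0.012 for the others, and the class above 1200 bases -0.061 for the subunits and -0.029 for the others. Across the 78 subunits, Pearson's r between log2 fold change and log2 coding length was -0.52 at 50 µM and -0.50 at 100 µM, and 0.035 for 100 against 50 µM; across 12673 other genes it was -0.20, -0.11 and 0.081. These describe genes measured in the same libraries. Genes are not independent replicates. Among the controls the subunits of at most 300 bases had median deviations from the control mean of 0.17 in replicate 1, -0.056 in replicate 2 and -0.098 in replicate 3, and the other genes of the class 0.10, -0.042 and -0.046. The part of coding length in the differences between groups was not tested. In the direct comparison of the doses, subunits lay at -0.10 to -0.18 in every length class, against -0.034 to 0.040 for the other genes.

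**Figure D5:**
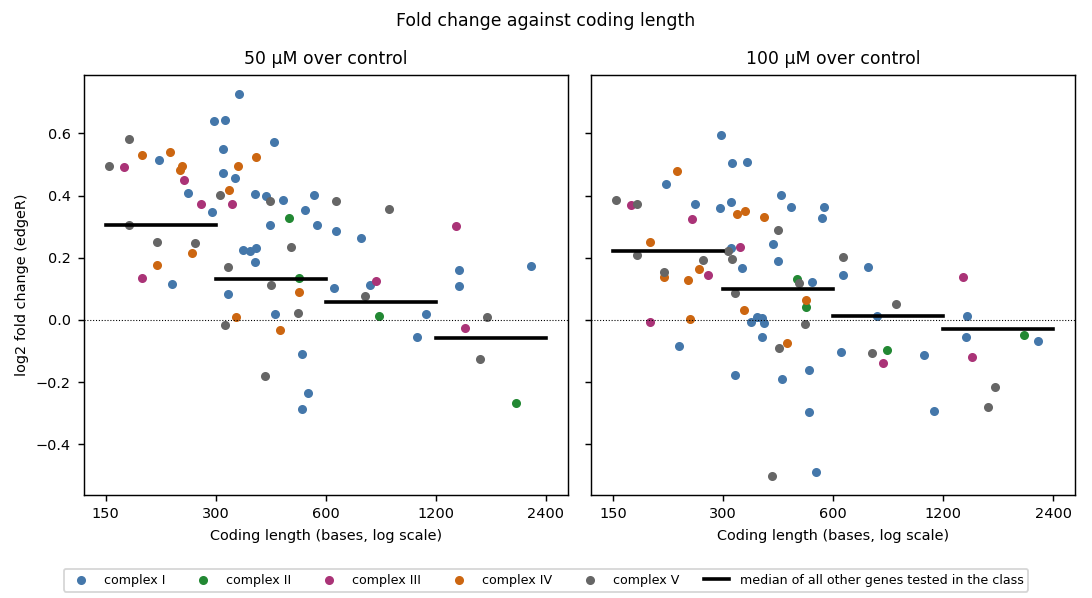
Log2 fold change (edgeR) of the 78 subunits against coding length (bases, log scale) at 50 µM and at 100 µM over control; points are subunits coloured by complex, and black bars give the median of all other genes tested in each length class. At 50 µM the medians of the other genes step down from 0.31 at up to 300 bases to -0.057 above 1200, and most subunits lie above the bar of their class; at 100 µM they lie around it.

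Genes that serve the complexes without being subunits were counted for comparison. Of all genes tested, edgeR called 5.28% higher and 6.31% lower at 50 µM, and 10.7% and 10.3% at 100 µM. The edgeR counts of each list stand beside these shares. The lists used here were chosen with earlier results of these data known. Of 20 complex I assembly factors 0 passed edgeR's test at 50 µM, where 1 was higher and 0 lower at an unadjusted p under 0.05. DESeq2 called 1 higher and limma 0, where they called 9.41% and 5.41% of all genes higher. At 100 µM 2 fell in edgeR: NDUFAF4 held 16.7 ± 0.549 CPM at 100 µM and 26.1 ± 1.43 in control cells (SD, n = 3 each; log2 fold change -0.65 ± 0.081, edgeR adjusted p = 0.00121), and TMEM70, which also serves complex V, had -0.43 ± 0.13 (edgeR adjusted p = 0.0485). Of 27 complex IV assembly factors 5 rose and 1 fell at 50 µM, and 2 rose and 7 fell at 100 µM. COA5 rose at both doses, by 0.77 ± 0.15 at 50 µM and 0.65 ± 0.15 at 100 µM, whereas COX10, which makes heme O for the complex, fell by 0.47 at 100 µM (edgeR adjusted p = 0.0130). Of 10 tested assembly factors of complexes II and III, UQCC2 rose at 50 µM (0.61 ± 0.15, edgeR adjusted p = 0.0298) and BCS1L, which inserts the Rieske protein, fell at 100 µM (-0.45 ± 0.11, edgeR adjusted p = 0.0206). Of 6 complex V assembly factors 1, TMEM70 again, fell at 100 µM.

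Of 16 tested regulators of mitochondrial biogenesis, 0 passed at 50 µM in edgeR, DESeq2 or limma (at an unadjusted p under 0.05 edgeR had 1 higher and 1 lower). At 100 µM PPARGC1B, a coactivator of respiratory genes, and TFAM, which packages mitochondrial DNA, fell. These were 2 of the 16, where 10.3% of all genes fell. TFAM held 93.4 ± 5.16 CPM at 100 µM and 110.4 ± 3.51 in control cells (log2 fold change -0.24 ± 0.075, edgeR adjusted p = 0.0470). Of 22 genes of the tricarboxylic acid cycle and pyruvate dehydrogenase, 4 fell at 50 µM and 7 at 100 µM in edgeR, and 0 rose. The list holds the kinases PDK1 to PDK4, which inhibit pyruvate dehydrogenase, so its falls are not all of enzymes of the pathway. PDK4 fell at both doses, by 1.39 ± 0.25 and 0.90 ± 0.25 in log2 units (edgeR adjusted p = 0.0146 and 0.0321). Of all genes 6.31% and 10.3% fell at the 2 doses, and 5.28% and 10.7% rose. At an unadjusted p under 0.05, 1 gene of this list was higher at each dose. DESeq2 and limma called 1 higher at 100 µM, where they called 13.4% and 9.05% of all genes higher. FH, fumarase, held 73.6 ± 2.11 CPM at 100 µM and 106.0 ± 10.6 in control cells (-0.53 ± 0.084, edgeR adjusted p = 0.00329). Of 21 genes of electron carriers and ubiquinone synthesis 1 rose and 1 fell at 50 µM, and 5 fell at 100 µM, beside the same shares. Median log2 fold changes of these lists lay between -0.069 and 0.21 at 50 µM and between -0.16 and 0.058 at 100 µM, against 0.26 and 0.13 for the subunits.

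A list of 9 tested genes tied to mitochondria in low oxygen also held the mitophagy receptors BNIP3 and BNIP3L and the kinase PDK1. Of the 9, 2 rose at 50 µM and 3 at 100 µM, where 5.28% and 10.7% of all genes rose. The 2 at 50 µM were BNIP3L and NDUFA4, the paralog of NDUFA4L2, so the counts do not measure a switch between paralogs. A pair of the 9, subunit-like genes that the rule leaves out, can be set beside the members. NDUFA4, now regarded as a complex IV subunit, held 157, 143 and 161 CPM in control cells, 196, 170.3 and 205 at 50 µM and 159, 166 and 158 at 100 µM, and rose at 50 µM by 0.31 ± 0.087 (edgeR adjusted p = 0.0481). Its paralog NDUFA4L2, a target of hypoxia-inducible factors, held 4.11, 0.518 and 0.966 CPM in control cells, 12.2, 10.5 and 10.8 at 50 µM and 42.7, 49.6 and 256 at 100 µM. Of the readthrough genes, ATP5MF-PTCD1 held 1.14, 1.27 and 2.85 CPM in control cells, was at 0 in all 3 libraries at 50 µM and held 0.895, 1.3 and 3.01 at 100 µM. At 50 µM it passed edgeR's test as lower (adjusted p = 0.0128). It shares sequence with ATP5MF, so how its reads were divided is uncertain. NDUFC2-KCTD14 held 17.8, 13.3 and 13.02 CPM in control cells, 20.4, 20.01 and 22.2 at 50 µM and 15.4, 14.1 and 29.5 at 100 µM and did not pass the test.

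In the authors' deposited table, whose q-values came from DESeq2 per the file headers, 38 of 81 subunits were higher and 3 lower at 50 µM at a q under 0.05, where 10.4% and 12.03% of all genes were. Among the higher were SDHD, UQCRC2, UQCRQ, UQCRB, COX7B2, ATP5MC2 and ATP5PO, which did not pass edgeR's test at that dose. Among the lower were NDUFB9 and NDUFA8, which did not pass it either. For 100 µM the authors' deposited table had 10 of 83 subunits higher and 2 lower, with 5.97% and 5.26% of all genes, and between the doses 0 higher and 3 lower at 100 µM, where 3.16% and 2.70% of all genes were.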

How the data were processed

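RNA of HCCLM3 cells was sequenced from poly(A)-selected libraries, and a duplex-specific nuclease step reduced the most abundant cDNA, per the labels' protocols. Expected counts per gene (estimated, not normalised), FPKM and TPM per library were deposited by the authors, with log2 fold changes, p-values and q-values of the authors' own DESeq2 comparisons per the file headers. The submitters' processing notes list RSEM 1.2.12, Bowtie2 2.2.5 and HISAT2 2.0.4, without roles, and the build GRCh38.p13. Whether counting used strand is not stated there. Of the deposited counts 26.8% were whole within 1e-06. 9 further per-sample columns of normalised counts were not used.

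Expected counts were rounded and filtered with filterByExpr (minimum count 10, minimum total 15, share 0.7), which kept 12832 genes and removed 4660. edgeR 4.0.16 (R 4.3.3, limma 3.58.1) was run with TMM factors and 1 robust quasi-likelihood fit of all 9 libraries with a term per group. Benjamini-Hochberg adjustment ran over all genes tested, with 0.05 as the threshold, and "rose" and "fell" are used of genes past it. Tests are two-sided, and the standard error was taken as the absolute log2 fold change over the root of the F statistic. TPM were used for levels between genes, and FPKM in limma on log2(FPKM + 0.1). Alternatives are given in the closing section, DESeq2 1.42.0 among them. Coding lengths are from GENCODE, matched by gene identifier. Where RefSeq lists several promoters for a gene, the first was used.

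The members, gene lists, motifs and alternatives were chosen with earlier results of these data known. The rule for naming took, per complex, the most abundant subunit, up to 3 rises and 3 falls per comparison, core subunits and paralogs, and up to 2 genes per direction of other lists. Some items the rule takes are not reported here. Other members were named after their values were seen. The table's strand differs from RefSeq's for 16 of 61 members with both, so the table's strands were not used and those of the promoters are RefSeq's. 8 members have no sound chromosome position in the table and are given without one. A comparison of the proteins of paralogs was not made. Intervals of single counts were not computed, since every group has replicates.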

Additional observations from a re-analysis of the deposited data

How the results depend on the processing

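The median log2 fold change of the subunits kept its direction under all 17 alternatives, and no called gene changed sign. With 1 library left out it ranged over 0.23 to 0.32 at 50 µM, 0.054 to 0.18 at 100 µM and -0.19 to -0.081 for 100 against 50 µM. Over the same omissions the rises ran from 0 to 46 at 50 µM and from 0 to 17 at 100 µM, with 0 to 3 and 1 to 5 falls, and between the doses 0 subunits were higher and 0 to 23 lower in edgeR. With the 2 compared groups fitted alone there were 36 rises and 3 falls at 50 µM, 2 rises and 1 fall at 100 µM, and 0 lower between the doses. DESeq2 had 33 rises and 2 falls at 50 µM, 13 and 4 at 100 µM, and 1 higher and 8 lower between the doses. By DESeq2 9.41% of all genes rose and 10.6% fell at 50 µM, and 13.4% and 12.9% at 100 µM. Between the doses it called 5.53% of all genes higher and 5.24% lower. limma on log2(FPKM + 0.1) had 4 falls at 100 µM, where 11.3% of all genes fell. With upper-quartile factors 0 fell at 50 µM in edgeR, where 5.81% of all genes fell. With no filter on low counts 0 fell at 50 µM and 0 were lower between the doses, where 4.26% and 0.935% of all genes were. Without both libraries that stood apart there were 53 rises and 4 falls at 50 µM, 28 and 12 at 100 µM, and 2 higher and 35 lower between the doses. There 28.5% of all genes rose and 28.9% fell at 50 µM, and 24.2% and 24.4% at 100 µM. Between the doses 24.6% of all genes were higher and 22.7% lower. The causes were not tested. The labels number the replicates and do not say whether the numbers pair the libraries. Correlations of deviations from the group means ran from -0.43 to 0.23 between same-numbered libraries and from -0.37 to 0.51 between others. Such deviations sum to 0 within a group, so these correlations cannot decide whether the numbers pair the libraries. With a replicate block there was 1 rise and 0 falls at 50 µM, 3 rises at 100 µM and 0 subunits lower between the doses. With this block 1.55% of all genes rose and 1.78% fell at 50 µM, and 6.96% rose at 100 µM. Between the doses 0.218% of all genes were lower. Among 105 results of 35 named genes, 1527 of the alternative values kept their side of the threshold, 170 lost the call and 88 gained it. The median standard error of the log2 fold change at 50 µM was 0.10 for the subunits, and the smallest called rise was 0.26 (NDUFV2).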
